A study of Homo sapiens with 12 samples.

Results

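Small nuclear, small nucleolar and other structured RNAs were followed in MM1S cells, a human multiple myeloma line, over 5 days of NGI-1. They were selected by symbol and level: a row of the deposited table had to belong to the RNU, RNVU1, SNORA, SNORD, SCARNA, RN7SL or RNY families, or be RN7SK, RMRP or RPPH1, and had to be at 1 TPM or more in 3 or more of the 12 libraries. TPM is transcript abundance corrected for length and scaled to one fixed total, so it is a share of the sequenced RNA. Of 59276 features in the table, 2957 rows belonged to these families, and 27 of them passed the level rule. The rule used the TPM values themselves, so the presence of these 27 RNAs above 1 TPM is a selection and not a result. In the same table, 11939 features of any kind passed it.

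Total RNA was sequenced from 12 libraries in 4 groups of 3. The untreated group (H1, H2 and H3) carries the time point day 0, and the other groups were MM1S cells kept in 10 μM NGI-1, an inhibitor of the oligosaccharyltransferase (OST) complex that attaches N-glycans to proteins, for 2 days (H4 to H6), 3 days (H7 to H9) and 5 days (H10 to H12). The labels name NGI-1 for the day 0 libraries too, and these were taken as untreated from the text of the study. All groups share one established line, there was no untreated group at a later day, and nothing in the labels says that the 3 libraries of a group came from separate cultures, so p-values measure only the spread between these libraries. Per the labels, each library was made from 200 ng of RNA and sequenced to over 60 M read pairs, but TPM keeps no read counts, so the counting error behind a value is unknown. Between 18164 and 20407 features were above 0 in a library, replicates of one group correlated across features with r between 0.985 and 0.992 in 12 pairs, and the 9 plasma cell markers examined were at 1 TPM or more in every library. The 3 B cell markers and the 2 monocyte markers stayed under 1 TPM, whereas of 2 T cell markers CD3D was listed at 0 and CD3E lay between 2.75 and 7.22 TPM. In bulk RNA, fewer cells of a kind and less RNA per cell cannot be told apart, and a share can rise because other RNAs fell.

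These RNAs act as RNA, inside ribonucleoproteins. U1 and U2 small nuclear RNAs pair with the 5′ splice site and the branch site of introns. Box C/D RNAs (SNORD) guide ribose methylation, box H/ACA RNAs (SNORA) guide pseudouridylation, some members of both kinds help to cut the ribosomal RNA precursor, and SCARNA genes encode the related guides of the Cajal body, many of which modify the small nuclear RNAs. RN7SK holds the elongation kinase P-TEFb inactive, RN7SL is the RNA of the signal recognition particle that brings secretory proteins to the endoplasmic reticulum, RPPH1 is the RNA of RNase P, which trims transfer RNA precursors, and RMRP is the RNA of RNase MRP, which cuts the ribosomal RNA precursor. Most guide RNAs are cut out of introns of host genes, whereas RN7SK, RN7SL, RMRP, RPPH1, U1, U2 and U3 (SNORD3) have promoters of their own.

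The sequences that matter for reading the values are given first, from GENCODE release 29 transcripts on GRCh38, the build that the submitters' processing notes call hg38. They are written as DNA, 5′ to 3′ along the RNA. Several of the 27 RNAs differ from one another by only a few bases, so short reads cannot always be told apart between them. RNU1-1 (chr1:16514122-16514285, minus strand, 164 bases, in no other annotated gene) is shown whole, with the stretch that pairs with the 5′ splice site (ACTTACCTG, bases 3 to 11) and the Sm protein binding site (AATTTGTGG, bases 125 to 133) in capitals. Searched on the RNA strand only, these letters are in 5.64% and 9.82% of the 621 GENCODE transcripts within 10 bases of its length.
RNU1-1: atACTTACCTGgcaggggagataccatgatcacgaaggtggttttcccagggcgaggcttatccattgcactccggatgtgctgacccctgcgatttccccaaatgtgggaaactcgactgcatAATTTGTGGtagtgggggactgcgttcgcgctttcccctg

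RNVU1-7 (chr1:148038753-148038916, minus strand) is annotated as a variant U1, and it matched RNU1-1 at 163 of 164 bases (99.4%). The only difference was T150C, counted from the first base of RNU1-1. Bases 135 to 164 are shown with that base in capitals.
RNU1-1: agtgggggactgcgtTcgcgctttcccctg
RNVU1-7: agtgggggactgcgtCcgcgctttcccctg

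RNU2-1 (chr17:43233787-43233977, minus strand, 191 bases) and RNU2-2P (chr11:62841619-62841809, minus strand, 191 bases) matched at 183 bases (95.8%). All 8 substitutions (G108A, C109A, A110T, G111A, C170T, C187T, C189T and T191C, RNU2-1 first) lie in the stretches of bases 96 to 125 and 164 to 191, where they are in capitals.
RNU2-1, bases 96 to 125: tggatttttggaGCAGggagatggaatagg
RNU2-2P, bases 96 to 125: tggatttttggaAATAggagatggaatagg
RNU2-1, bases 164 to 191: cagtacCtccaggaacggtgcacCcCcT
RNU2-2P, bases 164 to 191: cagtacTtccaggaacggtgcacTcTcC

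The U3 genes SNORD3A (chr17:19188016-19188714, plus strand) and SNORD3D (chr17:19112420-19112636, minus strand) were compared over their 217-base transcripts and matched at 98.6%, with the substitutions A4G, C53T and A78C. The first 100 bases hold all of them, in capitals.
SNORD3A: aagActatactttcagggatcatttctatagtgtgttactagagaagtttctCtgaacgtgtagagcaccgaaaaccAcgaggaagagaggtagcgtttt
SNORD3D: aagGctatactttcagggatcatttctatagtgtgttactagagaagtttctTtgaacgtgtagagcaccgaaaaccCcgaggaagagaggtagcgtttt

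SNORD17 and SCARNA7 are both intronic RNAs with box C and box D letters, and they moved in opposite directions, which is why both are shown. SNORD17 (chr20:17962710-17962946, minus strand, 237 bases) lies in an intron of SNX5 and of OVOL2. SCARNA7 (chr3:160514907-160515236, minus strand, 330 bases) lies in an intron of KPNA4, and its first and last 60 bases are given. Box C (ATGATGA) starts at base 6 in both, and box D (CTGA) at base 230 of SNORD17 and base 322 of SCARNA7, in capitals. On the same strand, ATGATGA occurs in 3.35% of 836 transcripts of the length of SNORD17 and in 5.54% of 1714 of the length of SCARNA7, and the short CTGA in 75.4% and 87.9%.
SNORD17: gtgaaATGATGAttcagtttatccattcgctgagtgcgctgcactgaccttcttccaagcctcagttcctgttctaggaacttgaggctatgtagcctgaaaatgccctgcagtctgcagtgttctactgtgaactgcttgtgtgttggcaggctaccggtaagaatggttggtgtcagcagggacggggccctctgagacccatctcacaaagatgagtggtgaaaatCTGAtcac
SCARNA7, bases 1 to 60: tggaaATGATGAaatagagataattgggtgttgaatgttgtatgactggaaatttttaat
SCARNA7, bases 271 to 330: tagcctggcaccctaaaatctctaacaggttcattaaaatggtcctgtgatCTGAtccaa

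The table held few of the structured RNAs that every cell uses. RNU4-1, RNU4-2, all listed U5, U6 and U7 rows, RNU11, RNU12, RNU4ATAC, RNU6ATAC, RNY1, RNY3 and RNY4 were listed at 0 in all 12 libraries. Over the whole family set, 2847 of 2957 rows were listed at 0 throughout and 110 were above 0 in at least 1 library. The 27 that passed comprised 5 of 129 U1 and U1 variant rows, 2 of 71 U2 rows, 4 of 150 SNORA rows, 3 of 282 SNORD rows, 4 of 24 SCARNA rows, 6 of 662 RN7SL rows, and RN7SK, RMRP and RPPH1. None came from the 90 U4, 31 U5, 1239 U6, 149 U7, 68 minor spliceosome or 56 RNY rows. An exact 0 for RNAs of this kind can be a failed estimate, so such rows are described as listed at 0 and not as absent.

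What the listed RNAs shared was length, which the rule did not use. A length was found for 2945 of the 2957 rows, with a median of 107 bases, whereas the 27 RNAs spanned 162 to 699 bases with a median of 270. Of 2069 rows annotated as shorter than 150 bases, 0 passed and 2 were above 0 at all, SNORD15B (146 bases, at most 3.16 TPM) and SNORA12 (147 bases, at most 3.05 TPM). Over all longer rows, the share that passed did not rise steadily with length. It was 8 of 177 rows from 150 to under 200 bases, 4 of 36 from 200 to under 250 bases and 15 of 663 of at least 250 bases. Symbols with the ending of a pseudogene were then left out, except RNU2-2P, which was kept. This also removed RMRP, a gene that is no pseudogene. Of the rows kept, 0 of 426 under 150 bases passed. Among longer rows kept, 8 of 34 from 150 to under 200 bases passed, 4 of 14 from 200 to under 250 bases and 11 of 20 of at least 250 bases. The same held within each guide family: 0 of 133 short and 4 of 14 longer SNORA rows passed, 0 of 262 and 3 of 12 SNORD rows, and 0 of 14 and 4 of 10 SCARNA rows. Some lengths are ambiguous. SNORA71B spans 272 bases in GENCODE but holds a transcript of 134 bases there, and SNORD3A spans 699 bases but holds a transcript of 217 bases. Other features of the table showed the same order: 15 of 2903 features under 150 bases (0.517%) were above 0, against 25720 of 47663 features of at least 250 bases (54%). The annotation used for the table, any length limit of the quantification and the size selection of the libraries are not given in the sources used here, and their part in these zeros was not tested.

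At the edge of the level rule, the lowest RNAs inside it by the third-highest library were RN7SL600P (1.08 TPM) and SNORA53 (1.58 TPM). Just outside it lay SNORA23 (0.924 TPM) and SCARNA10 (0.861 TPM). In the untreated libraries alone, 11 of the 27 were at 1 TPM or more in all 3, 12 in 1 or 2, and 4 in none (RN7SL600P, RNU2-2P, SCARNA2 and SNORA74A). The last 4 passed through the treated libraries alone, and the 12 before them also needed treated libraries to pass. Among those 12 are RNU1-1, RNVU1-7, SNORD3D and SNORA73B. A rise in an RNA of either kind is partly built into the selection, and counts over the 27 are given as a description only.

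The summed share of these RNAs was higher in treated cells. The 27 RNAs together took up 283 ± 81.4 TPM (mean ± SD, n = 3) in untreated cells, 916 ± 265 TPM at day 2, 1212 ± 568 TPM at day 3 and 1006 ± 177 TPM at day 5, which is 0.0283%, 0.0916%, 0.121% and 0.101% of the TPM. The lowest treated library, at 620 TPM, lay above the highest untreated library, at 371 TPM. Part of this difference is built into the selection, since only 11 of the 27 passed from the untreated libraries alone. Of the U1 and U2 RNAs only RNU2-1 is among those 11, and no SNORA is. The same limit holds for the class sums, and no sum over the 11 was made. The classes are given by their summed means, and no test compared them. RN7SL stood at 185, 644, 555 and 366 TPM over the 4 groups in time order. Its order among treated days depended on the scaling. The rescaled sum is no longer a share of the library. Written as a percent of the original TPM total, it was 0.0507%, 0.0660% and 0.0579% at days 2, 3 and 5. The order also depended on H9, without which the TPM share at day 3 (0.0714%) was above that of day 2 (0.0644%). The U1 and U2 RNAs stood at 28.1, 51.2, 200 and 205 TPM, and RN7SK, RMRP and RPPH1 together at 36.4, 176, 312 and 280 TPM. The SNORD sum was 20.6, 23.7, 87.4 and 86.8 TPM, the SNORA sum 6.30, 6.71, 21.1 and 17.9 TPM, and the SCARNA sum 6.98, 15.5, 36.5 and 49.2 TPM. Within each class 1 or 2 genes carried most of the sum over all libraries: RN7SL2 and RN7SL1 held 98.1% of RN7SL, SNORD3A and SNORD3D 86.5% of SNORD, SCARNA7 and SCARNA9 91.1% of SCARNA, SNORA73B and SNORA74A 82.8% of SNORA, and RNU1-1 and RNVU1-7 61.9% of the U snRNAs.

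Single genes were tested with limma on the deposited log2(TPM + 1) values of all 11939 features, and a gene was called higher or lower where the Benjamini-Hochberg adjusted p was under 0.05 and the absolute log2 fold change exceeded 0.5. On this scale the change of a low gene is understated. At day 2, 10 of the 27 RNAs were called higher (all features: 8.04%) and 1 lower (23.2%). At day 3, 18 were called higher (7.59%) and 2 lower (61.5%), and at day 5, 14 higher (7.73%) and 3 lower (69.8%). The median log2 fold change of the 27 was 0.73, 0.93 and 0.85 at days 2, 3 and 5, beside -0.18, -0.73 and -0.99 for all features. All 3 treated libraries lay above all 3 untreated ones for 8 RNAs at day 2 (all features: 16.9%), 14 at day 3 (11.1%) and 14 at day 5 (10%). All 3 were below the untreated ones for 0 RNAs at day 2 (44.1%), 2 at day 3 (70.5%) and 1 at day 5 (75.2%). Of the 11 RNAs at 1 TPM or more in all untreated libraries, 7 were called higher at day 5, 1 lower and 3 neither. The 3 comparisons share the same untreated libraries, so they are not independent of each other.

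Because most features lost share, a second scaling (rescaling) set the median feature equal between libraries, which moved the median log2 fold change of all features at day 5 from -0.99 to -0.02. After rescaling, 11 of the 27 RNAs were called higher and none lower at day 2, with 18 rises and no fall at day 3 and with 18 rises and 1 fall at day 5. Of all 11939 features, 1542, 2848 and 3281 were called higher at days 2, 3 and 5 after rescaling. Lower calls among all features were 1360, 2887 and 3209. Directions of single genes given below are on the TPM scale, and a call that changed after rescaling is given with the gene.

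**Figure D1:**
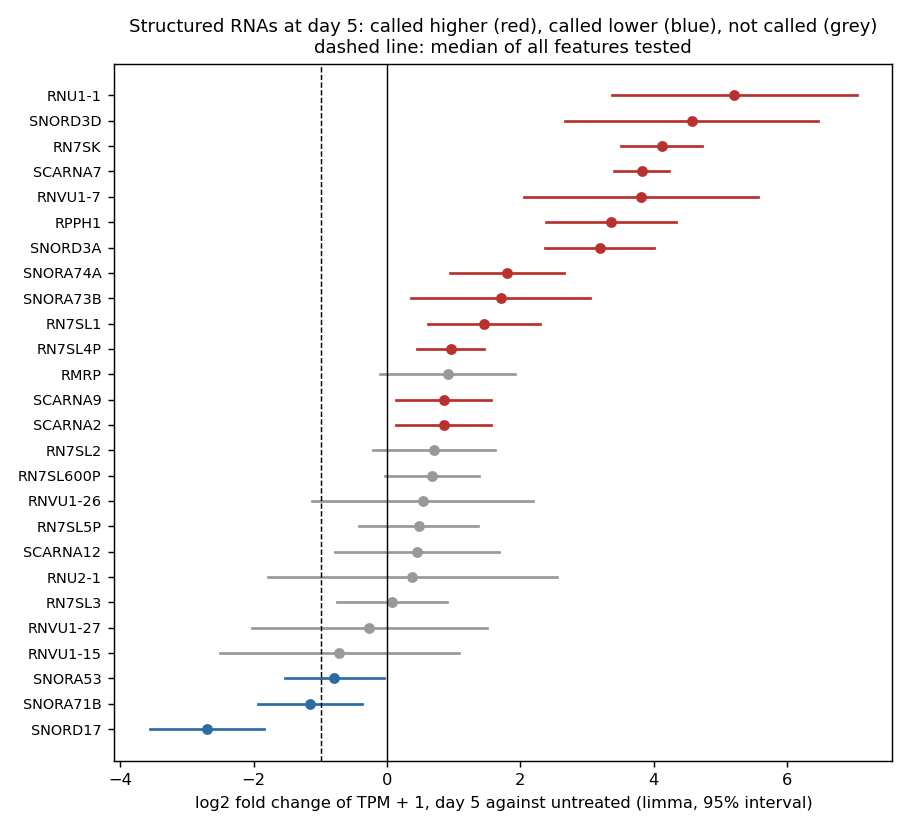
Points give the limma log2 fold change of TPM + 1 between day 5 and untreated cells for 26 structured RNAs, with 95% intervals, coloured by call, and the dashed line marks the median of all features tested (-0.99). RNU2-2P, listed at 0 in every untreated library, is left out. RNU1-1 stood highest at 5.21 and SNORD17 lowest at -2.70.

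RN7SK was higher at every time point. Its TPM was 9.28, 5.65 and 14.1 in untreated cells, 57.9, 68.7 and 49.7 at day 2, 134, 242 and 115 at day 3, then 192, 176 and 157 at day 5. Each group from day 2 on lay wholly above the untreated libraries, and day 3 wholly above day 2. The mean went from 9.67 ± 4.23 to 175 ± 17.9 TPM (SD, n = 3) by day 5, a log2 fold change of 4.12 (SE 0.280, adjusted p = 9.75e-09), after 2.55 at day 2 and 3.95 at day 3. The start of the RNA (chr6:52995621-52995948, plus strand) holds GATC 3 times in its first 110 bases, shown in capitals, a motif bound by HEXIM proteins. The letters GATC occur at least 1 time in 62.6% of the 1703 transcripts of this length.
RN7SK, bases 1 to 110: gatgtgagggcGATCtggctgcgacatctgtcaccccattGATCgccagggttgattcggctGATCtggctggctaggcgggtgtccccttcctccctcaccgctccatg

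RPPH1, the RNA of RNase P (chr14:20343075-20343407, minus strand, within an exon of the same-strand gene AL355075.4), rose alongside. It was at 7.04, 3.28 and 5.84 TPM in untreated cells, 27.3, 14.9 and 15.2 at day 2, 63.6, 140 and 30.1 at day 3, then 93.8, 64.2 and 39.9 at day 5. No treated library fell into the untreated range, and the libraries of day 3 differed from each other more than those of any other day. The log2 fold change was 1.65, 3.41 and 3.36 at days 2, 3 and 5 (SE 0.453, adjusted p at day 5 = 8.98e-06). Reads of RPPH1 and AL355075.4 may be split, and the latter was at 0 in untreated cells and at most 1.75 TPM elsewhere.

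RMRP (chr9:35657751-35658018, minus strand) was called higher at days 2 and 3. It was at 24.4, 11.7 and 27.9 TPM in untreated cells, 127, 53 and 113 at day 2, 85.7, 101 and 24.0 at day 3, then 36.6, 48.3 and 32.3 at day 5. Day 2 lay wholly above untreated cells, and day 3 overlapped them through H9. The log2 fold change was 2.14 at day 2 (adjusted p = 0.00245), 1.52 at day 3 (adjusted p = 0.00897) and 0.91 at day 5 (adjusted p = 0.0860), the last with a 95% interval from -0.11 to 1.92, and day 5 minus day 2 was -1.23 (SE 0.471, adjusted p = 0.0266). After rescaling that lower level at day 5 was gone: RMRP was called higher at each day by similar amounts (2.34, 2.35 and 2.09), and day 5 minus day 2 was -0.25 (adjusted p = 0.670). It also became a day 5 call without the 20 most abundant features (1.24) and without H9, which left the estimate at 0.91 and changed the spread.

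**Figure D2:**
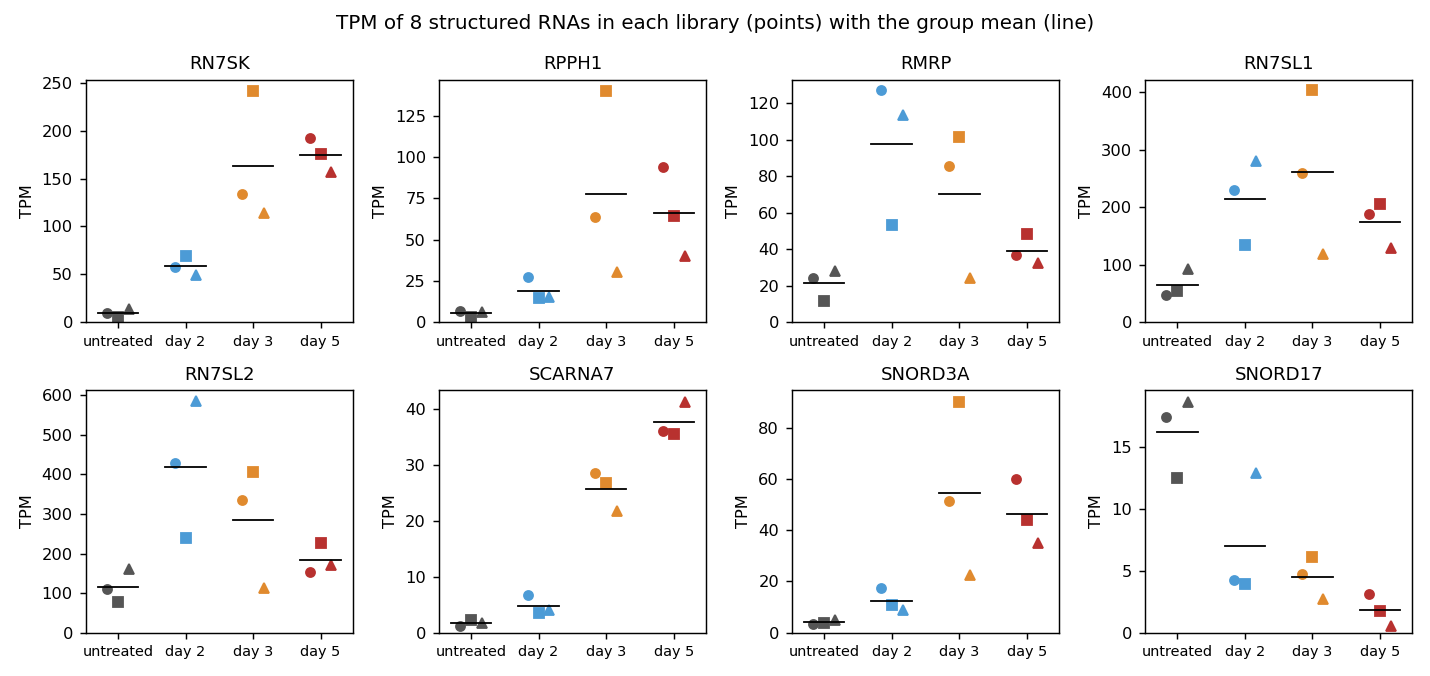
Each panel shows the TPM of 1 structured RNA in the 12 libraries, with points for libraries, coloured by group, and a line at the mean of the 3. RN7SK, RPPH1, SCARNA7 and SNORD3A were higher from day 3 on than in any untreated library, RMRP and RN7SL2 had their highest mean TPM at day 2 (with similar fold changes at all 3 days after rescaling), and SNORD17 was lower from day 3 on.

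The signal recognition particle RNAs were the most abundant of the set. RN7SL1 (chr14:49586580-49586878, plus strand) and RN7SL2 (chr14:49862550-49862849, minus strand) matched at 98.3%, so their reads may be exchanged, and RN7SL1 also lies within an exon of the same-strand gene AL139099.4 and in an intron of RPS29 on the other strand. RN7SL1 was at 47.1, 53.8 and 91.8 TPM in untreated cells, 230, 133 and 280 at day 2, 260, 404 and 118 at day 3, then 188, 205 and 128 at day 5. All 9 treated libraries lay above the untreated ones, and the days overlapped one another. The log2 fold change passed the test at each day, at 1.72, 1.89 and 1.45 (SE 0.389, adjusted p at day 5 = 0.00321).

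RN7SL2 had its highest mean TPM at day 2. Its TPM was 110, 77.5 and 161 in untreated cells, 429, 240 and 586 at day 2, 335, 406 and 112 at day 3, then 154, 227 and 172 at day 5. Day 2 did not overlap untreated cells, whereas H9 of day 3 and H10 of day 5 lay within the untreated range. The log2 fold change was 1.81 at day 2, 1.15 at day 3 and 0.70 at day 5 (adjusted p = 0.134, 95% interval -0.21 to 1.62), and day 5 minus day 2 was -1.11 (SE 0.424, adjusted p = 0.0263). After rescaling RN7SL2 was called higher at each day (2.04, 2.01 and 1.92), and day 5 minus day 2 was -0.12 (adjusted p = 0.828). It also became a day 5 call without the 20 most abundant features (1.03) and without H9 (0.70).

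The other RN7SL rows were low. RN7SL4P, 85.7% identical to RN7SL1 and 1 of the 9 RNAs at 1 TPM or more in every library, lay between 1.60 and 2.28 TPM in untreated cells and between 3.12 and 7.44 TPM in treated ones, with no overlap, and was called higher at each day (1.18, 0.90 and 0.95). RN7SL3, 97.7% identical to RN7SL1, stayed at or under 5.13 TPM and was called higher at days 2 and 3 (1.26 and 0.90) but not at day 5 (0.07, 95% interval -0.76 to 0.90). RN7SL600P was called higher only at day 3 (0.83), where it reached 2.16 TPM, and its day 5 estimate of 0.68 became a call after rescaling (1.02), with a pseudocount of 0.1 (2.03), without the 20 most abundant features (0.94), without H10 (1.06) and without H2, which leaves untreated libraries listed at 0. RN7SL5P was not called at any day on the TPM scale (0.29, 0.43 and 0.47) but was called higher at day 5 after rescaling (1.05, adjusted p = 0.0183).

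The main U1 rows were called higher from day 3 on. RNU1-1 was at 14.8, 0 and 0 TPM in untreated cells, 5.49, 15.9 and 5.25 at day 2, 108, 35.6 and 27.0 at day 3, then 135, 70.7 and 81.6 at day 5. Day 2 overlapped untreated cells, and days 3 and 5 lay above both. The log2 fold change was 1.81 at day 2 (adjusted p = 0.0995), 4.26 at day 3 (adjusted p = 0.000416) and 5.21 at day 5 (adjusted p = 5.75e-05), and its size depends on the 2 untreated libraries listed at 0. RNVU1-7, 1 base away from RNU1-1, was at 2.34, 8.96 and 0 TPM in untreated cells, 40.1, 4.19 and 5.25 at day 2, 42.7, 121 and 38.5 at day 3, then 66.9, 41.5 and 31.0 at day 5. Its days 3 and 5 also lay above all untreated libraries, with log2 fold changes of 4.21 and 3.81 (adjusted p = 0.000310 and 0.000583). In H6 both rows were listed at 5.25 TPM. How reads were divided between 2 RNAs that differ at 1 base is uncertain.

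The other U1 variants were sparse. RNVU1-15 was above 0 in 5 libraries (at most 8.32 TPM), and RNVU1-26 and RNVU1-27 in 4 each (at most 7.20 and 6.19 TPM). None was called at any day, and the sign of RNVU1-15 at day 5 turned without H2 (from -0.71 to 0.04), while without H12 it was called lower (-1.72). RNVU1-26 was called higher without H3, which leaves untreated libraries listed at 0 (1.55 in place of 0.54), and the sign of RNVU1-27 (-0.26) turned without H1, H10 or H12 (0.69, 0.08 and 0.08) and after rescaling (0.08).

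The 2 U2 rows did not move alike. RNU2-1 was at 9.02, 6.76 and 17.7 TPM in untreated cells, 0, 35.2 and 10.3 at day 2, 6.67, 8.0 and 50.9 at day 3, then 8.35, 18.3 and 16.8 at day 5. Every treated group overlapped the untreated one, and the libraries within day 2 and day 3 spanned the whole range of the gene. It was not called at any day (-0.61, 0.43 and 0.38, the last with a 95% interval from -1.78 to 2.55), an interval that leaves room for a change of several fold either way. RNU2-2P was listed at 0 in H1, H2 and H3, at 15.4, 14.5 and 0 TPM at day 2, 57.6, 62.0 and 32.0 at day 3, then 64.1, 36.9 and 27.3 at day 5. It was called higher at each day (adjusted p at day 5 = 1.76e-05), but no fold change is given against a group listed at 0 throughout. RNU2-2P lies within an exon, annotated as UTR, of WDR74 on the same strand, and WDR74 fell from 116 ± 4.49 to 32.2 ± 2.81 TPM (log2 fold change -1.82, adjusted p = 3.52e-10).

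**Figure D3:**
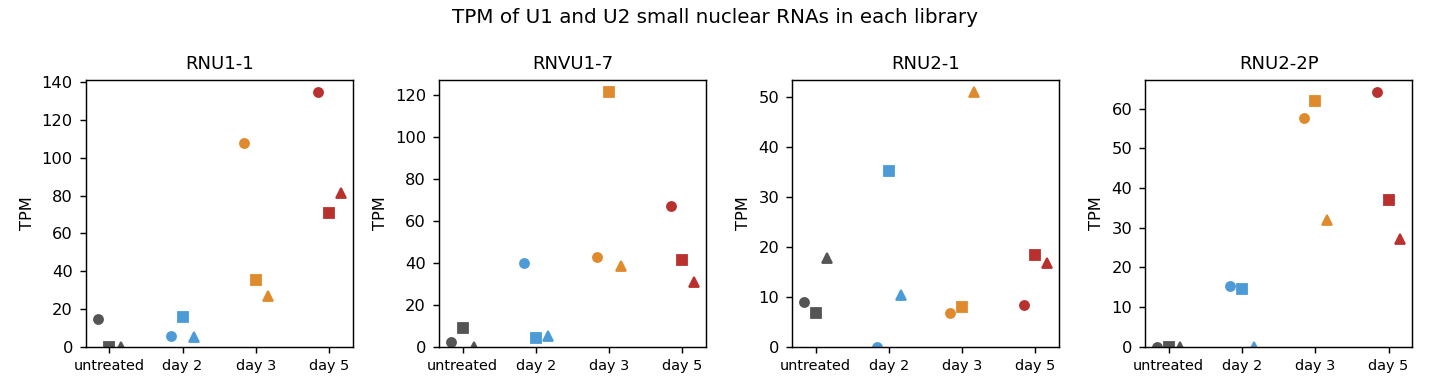
TPM of RNU1-1, RNVU1-7, RNU2-1 and RNU2-2P in each library, by group, without means because some libraries are listed at 0. RNU1-1, RNVU1-7 and RNU2-2P lay above all untreated libraries at days 3 and 5, and RNU2-1 overlapped the untreated libraries in every group.

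Among the box C/D RNAs, U3 rose and SNORD17 fell. U3 is needed for the early cuts of the ribosomal RNA precursor. SNORD3A was at 3.61, 3.84 and 4.81 TPM in untreated cells, 17.4, 10.7 and 8.80 at day 2, 51.4, 90.1 and 22.5 at day 3, then 60.1, 44.1 and 34.8 at day 5. All 9 treated libraries lay above the untreated ones, and day 3 lay wholly above day 2. The log2 fold change was 1.34, 3.25 and 3.19 (SE 0.377, adjusted p at day 5 = 2.39e-06). SNORD3D was at 0, 0 and 1.09 TPM in untreated cells, 1.95, 0 and 11.3 at day 2, 19.9, 58.8 and 5.91 at day 3, then 79.5, 23.2 and 13.3 at day 5. SNORD3D was called higher at days 3 and 5 (4.0 and 4.57, adjusted p = 0.000881 and 0.000250) but not at day 2 (1.37, adjusted p = 0.222), and it overlaps the same-strand gene AC007952.4.

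SNORD17, a guide for ribose methylation, was the clearest fall. It was at 17.4, 12.5 and 18.7 TPM in untreated cells, 4.29, 3.97 and 12.9 at day 2, 4.77, 6.12 and 2.71 at day 3, then 3.14, 1.75 and 0.562 at day 5. At day 2 H6 lay within the untreated range, and at days 3 and 5 all 3 libraries lay below it. The mean went from 16.2 ± 3.27 to 1.82 ± 1.29 TPM by day 5, and the log2 fold change was -1.25, -1.67 and -2.70 (SE 0.399, adjusted p = 0.0211, 0.00167 and 2.20e-05). After rescaling the day 5 call held (-1.73, adjusted p = 0.00355), whereas those of day 2 (-1.0, adjusted p = 0.0904) and day 3 (-0.90, adjusted p = 0.0926) did not. The count of RNAs called lower at day 2, which is SNORD17 alone, was 0 without H3, H4 or H5 and 2 without H12.

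The box H/ACA RNAs were low and divided. SNORA73B (chr1:28508559-28508762, plus strand), which takes part in ribosomal RNA processing, ends with an ACA box followed by 3 bases, a placing found in 2.89% of the 692 transcripts of this length.
SNORA73B, bases 145 to 204: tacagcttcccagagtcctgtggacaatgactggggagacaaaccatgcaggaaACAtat

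SNORA73B was at 2.14, 4.33 and 0.759 TPM in untreated cells, 3.86, 2.76 and 5.18 at day 2, 11.7, 30.5 and 8.12 at day 3, then 31.8, 5.01 and 4.21 at day 5. Day 3 lay above the untreated libraries, while at day 5 H10 stood far above H11 and H12, and H12 overlapped. It was called higher at day 3 (2.32, adjusted p = 0.00371) and day 5 (1.71, adjusted p = 0.0201). The day 5 call was lost without H10 (0.86), without H3 (1.30) and without the filter on low values (adjusted p = 0.0936).

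SNORA74A (chr5:139278781-139278978, plus strand) was at 0.603, 0 and 0 TPM in untreated cells, 0 in all day 2 libraries, 2.12, 4.59 and 1.02 at day 3, then 5.91, 3.77 and 1.06 at day 5. It was called higher at days 3 and 5 (1.49 and 1.80, adjusted p = 0.00377 and 0.000801) on values near the limit of the rule. SNORA71B (chr20:38425083-38425354, minus strand) went the other way, from 3.54, 3.52 and 0.936 TPM to 0.383, 0.837 and 0 at day 3 and 0, 0.855 and 0.958 at day 5. It was called lower at both days (-1.32 and -1.15), but not after rescaling (-0.89 and -0.58), and at day 5 neither without H10 (-0.84) nor without the filter on low values (adjusted p = 0.0507). The count of RNAs called lower at day 5 was 1 without H10 and after rescaling. SNORA53 did not exceed 1.70 TPM in any library and was called lower at day 5 only (-0.79, adjusted p = 0.0454), a call lost in 11 of 17 alternative settings, among them each of those without H2, H3, H7, H9, H10 or H11, where the estimate lay between -0.79 and -0.55.

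SCARNA7, a Cajal body guide, was called higher at each day and had the smallest spread between libraries of the 27 RNAs. Its TPM was 1.27, 2.23 and 1.79 in untreated cells, 6.70, 3.55 and 4.07 at day 2, 28.5, 26.7 and 21.7 at day 3, then 36.0, 35.6 and 41.3 at day 5. The 4 groups did not overlap at any point, and each stood above the one before it. The mean went from 1.76 ± 0.482 to 37.7 ± 3.19 TPM (SD, n = 3), a log2 fold change of 1.04 at day 2, 3.28 at day 3 and 3.82 at day 5 (SE 0.190, adjusted p at day 5 = 4.66e-10).

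SCARNA9 (chr11:93721513-93721865, plus strand), which modifies U2, moved little. It was at 5.12, 3.22 and 3.61 TPM in untreated cells and between 3.68 and 12.4 TPM in treated ones, with 1 overlapping treated library at day 2 and none at days 3 and 5. It was called higher at days 3 and 5 (0.93 and 0.85), and after rescaling at day 2 as well (0.88, adjusted p = 0.0316). Its day 5 call was lost without H2 (0.74), H3 (0.81) or H12 (0.55), and without the filter on low values (adjusted p = 0.108). SCARNA2 (chr1:109100193-109100612, plus strand) went from 0.242 to 0.858 TPM in untreated cells to 1.61 to 2.09 TPM at day 5, and it was called higher at days 3 and 5 (0.84 and 0.85), not at day 5 without H2 (0.86), H3 (0.70) or H10 (0.77), or without the filter (adjusted p = 0.107). SCARNA12, which overlaps an exon of PHB2, was not called at any day.

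Neighbouring treated days were compared as well. From day 2 to day 3, 11 RNAs were called higher (all features: 3.22%) and 1 lower (55.5%), the latter SNORA71B (-1.13). The count of rises was 7 without H8, and that of falls 0 without H4 or H9 and 2 without H6. The smallest adjusted p was that of SCARNA7, with a log2 fold change of 2.24 (SE 0.190, adjusted p = 1.21e-06), followed by SNORD3A with 1.91 and RN7SK with 1.40. SNORA74A and RN7SL600P were also called higher (adjusted p = 0.00175 and 0.00850), without a fold because both were listed at 0 in all day 2 libraries. After rescaling 13 were called higher, SCARNA2 (0.99) and SNORA53 (0.85) being added, and SNORA71B (-0.86) was no longer lower. Of all 11939 features, 1713 were higher and 1624 lower in that rescaled comparison. All 3 libraries of day 3 lay above those of day 2 for 9 RNAs (6.93%) and below for 1 (70.1%). From day 3 to day 5, 1 RNA was called higher (0.67%), SCARNA7 with 0.54 (adjusted p = 0.0474), and 1 lower (13.1%), SNORA53 with -1.12 (adjusted p = 0.0276). All 3 libraries of day 5 lay above those of day 3 for 1 RNA (3.45%) and below for 2 (34.1%). The count of rises was 0 without any one of H3, H6, H7, H8, H9, H10, H11 or H12. The count of falls was 0 without H7 or H11, and 2 or 3 without H2, H3, H6 or H9. Day 5 set directly against day 2 gave 10 RNAs higher (4.35%) and 5 lower (69.8%). With the rescaled values, 14 rose and 0 fell in that comparison, where the median of all features was -0.07.

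Host genes gave a second reading of the intronic RNAs. The fall of SNORD17 ran with a fall of SNX5, from 87.4 ± 10.2 to 24.4 ± 1.61 TPM (log2 fold change -1.80, adjusted p = 3.83e-09). SCARNA7 went up while KPNA4, an importin gene, went from 12.4 ± 1.05 to 5.87 ± 1.66 TPM (-0.99, adjusted p = 6.17e-05). At day 5 CEP295, host of SCARNA9, was lower by a log2 fold change of -1.99, and RCC1 and SNHG3, which both span SNORA73B, by -2.80 and -0.83. SNORA74A lies in introns of MATR3, which was at 238 and 243 TPM in untreated and day 5 cells (0.03, adjusted p = 0.758), and of SNHG4, which was lower (-0.74). SNHG17, host of SNORA71B, and SLC25A3, host of SNORA53, were lower by -1.60 and -1.92, as these RNAs were. SNORA53 overlaps an exon of SLC25A3 by 26 bases, so their reads may be split. Thus, 4 intronic RNAs called higher at day 5 (SCARNA7, SCARNA9, SNORA73B and SNORA74A) had hosts that were lower or not called, and 3 called lower (SNORD17, SNORA71B and SNORA53) had hosts that were lower. Lower hosts were common to most genes: 69.8% of all features were called lower at day 5 with a median of -0.99, so KPNA4 was at that median and SNHG3 and SNHG4 were above it. After rescaling the fall of SNORA71B and SNORA53 was no longer called.

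The protein partners of these RNAs were mostly lower on the TPM scale, as were most features. A list of 135 genes for proteins that bind, build, transcribe or process these RNAs was measured in full. At day 2, 67 of these genes were lower and 0 higher, at day 3 the counts were 107 and 1 (2 higher without H8), and at day 5 they were 116 and 2, with median log2 fold changes of -0.50, -1.20 and -1.59. Over all features, 23.2%, 61.5% and 69.8% were called lower at these days, and 8.04%, 7.59% and 7.73% higher. The medians of all features were -0.18, -0.73 and -0.99. After rescaling, the split of the partners at day 5 was 69 lower and 27 higher, beside 3209 lower and 3281 higher of all 11939 features. All 4 core proteins of box C/D particles were lower at day 5, among them FBL, the methyltransferase (-2.29), and NOP56 (-2.34). All 4 box H/ACA proteins were lower too, led by DKC1, the pseudouridine synthase (-2.70). The assembly and Cajal body group had 11 of 12 lower, with the largest fall in NOLC1 (-3.06), and 1 higher, ZNHIT3 (1.0). The proteins specific to single snRNPs had 16 of 18 lower (SNRNP25, -3.02), and snRNP assembly 14 of 17 (WDR77, -2.74). The Sm proteins, with 5 of 7 lower (SNRPB, -2.37), and the LSM proteins, with 5 of 9 (LSM2, -2.26), were near or under the share of all features. Factors that transcribe and process snRNAs had 23 of 24 lower (INTS7, -2.23), and RNA polymerase III 15 of 15 (POLR3K, -2.61). RNase P and MRP proteins had 8 of 10 lower (POP1, -2.67), signal recognition particle proteins 5 of 6 (SRP68, -2.08), and Ro and La 2 of 2 (SSB, -1.92).

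The RN7SK particle was mixed. MEPCE, which caps the RNA, and HEXIM1, which holds P-TEFb, were lower at day 5 (-1.88 and -1.49), whereas LARP7, which binds the 3′ end of RN7SK, went from 25.3 to 47.6 TPM and was called higher (0.89, SE 0.126, adjusted p = 1.42e-05). Of its 7 genes 4 were lower, 1 higher and 2 not called. SRP14, which binds the Alu end of RN7SL, was at 262 and 233 TPM in untreated and day 5 cells and did not reach the fold threshold (-0.17).

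The spread between libraries of one group was wide for these RNAs. The SD of the log2 values within groups, averaged over the 4 groups, had a median of 0.58 over the 27, against 0.16 over all features tested. It ranged from 0.24 for SCARNA7 to 1.35 for RNU2-1, and by this measure the 27 lay between the 85.2 and 99.9 percentile of all features. The difference was present at each level: 0.52 against 0.18 at a mean TPM under 10 (15 RNAs), 0.86 against 0.15 at 10 to 100 TPM (9 RNAs), and 0.58 against 0.10 above 100 TPM (3 RNAs). TPM is corrected for length, so at the same level a short RNA rests on fewer reads than a long one. The part of read number in this spread was not tested. Among RNAs with a mean of at least 10 TPM, RNU2-1 (1.35), SNORD3D (1.31) and RNVU1-7 (1.19) spread most.

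The spread within a group had a direction. In untreated cells, H3 was the highest library for 8 of 14 RNAs above 0 (29.9% of all features). At day 2, H5 was the lowest for 12 of 17 (29.4%). At day 3, H8 was the highest library for 16 of 22 RNAs above 0 (64.4% of all features) and H9 the lowest for 17 (49.6%). At day 5, H10 was the highest for 11 of 21 (12.7%) and H12 the lowest for 13 (11.6%). Over all features H12 was the highest of the day 5 libraries in 71.4%. RNA5-8SN2, the only row of 501 nuclear ribosomal RNA rows above 0, was at 1448, 1967 and 2674 TPM in untreated cells, 7302, 2324 and 3597 at day 2, 12752, 39037 and 3710 at day 3, then 18192, 11810 and 5192 at day 5. From highest to lowest, its untreated libraries took the order H3, H2, H1, shared by 3 of 14 RNAs (14.7% of features). At day 2 the order was H4, H6, H5, shared by 6 of 17 (16%). At days 3 and 5 its libraries took the order H8, H7, H9 and H10, H11, H12. That order was shared by 14 of 22 RNAs at day 3 (37.4% of features) and 10 of 21 at day 5 (6.35%). The RNAs in that order at both days were RN7SK, RPPH1, RNVU1-7, RNU2-2P, SNORD3A, SNORD3D, SNORA73B, SNORA74A and SNORD17. RNA5-8SN2 was called higher at days 3 and 5 (2.64 and 2.40, adjusted p = 0.00276 and 0.00465). The mitochondrial ribosomal RNAs summed to between 5100 and 5415 TPM in untreated cells and to between 9959 and 10612 TPM at day 5. The part of ribosomal RNA content in the rise of the structured RNAs was not tested.

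**Figure D4:**
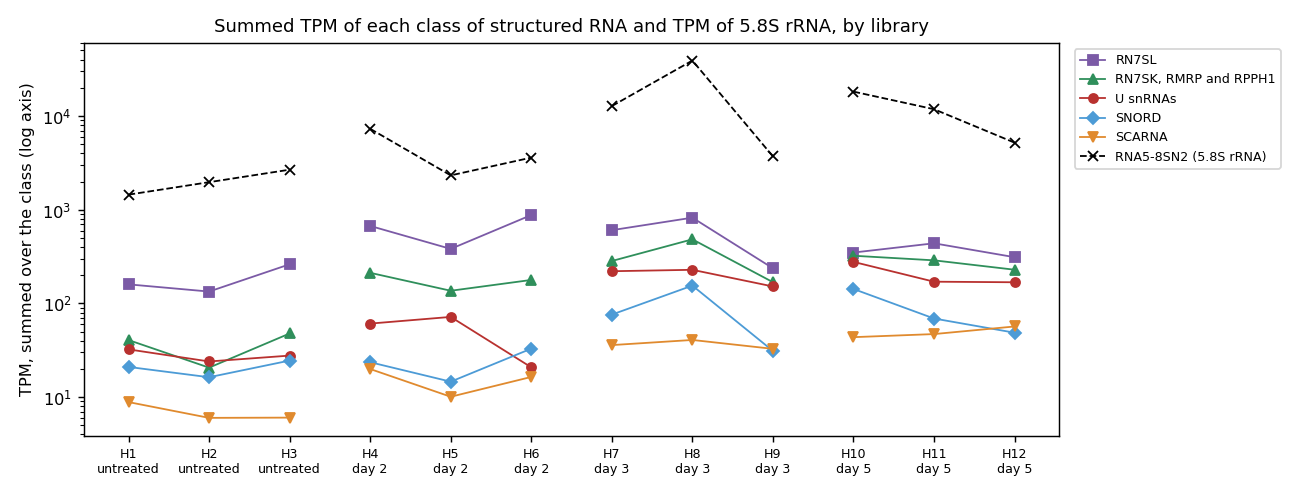
TPM per library on a log axis, summed over each class of structured RNA (SNORA, the lowest class, is left out), with lines joining the libraries of a group, beside the TPM of RNA5-8SN2, a ribosomal RNA. At day 3 H8 was highest and H9 lowest for the classes drawn and the ribosomal RNA. Over all features at that day, H8 was highest in 64.4% and H9 lowest in 49.6%.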

How the data were processed

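Total RNA from 12 MM1S libraries was measured (3 each at day 0, 2, 3 and 5 of NGI-1). The authors deposited one table of log2(TPM + 1) values, and the submitters' processing notes name FastQC, Trimmomatic, STAR, Salmon and hg38. Tool versions, the annotation, length limits and whether counting used strand are not given in the sources used here. TPM keeps no counts, so depth and counting error are unknown.

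The deposited log2 values were tested with limma 3.58.1 (R 4.3.3) with 1 mean per group and a mean-variance trend, over the 11939 features at 1 TPM or more in 3 or more libraries, with Benjamini-Hochberg adjustment. A call required an adjusted p below 0.05 together with an absolute log2 fold change above 0.5. The script was tested on simulated data. The members, the lists and the 135 partner genes, compiled from general knowledge, were chosen with earlier results of these data known.

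Named genes were the 3 most abundant RNAs of each class, those with the largest changes at day 5 without overlap, the main U snRNAs, RN7SL1, RN7SL2, RN7SK, RMRP and RPPH1, those with the widest spread, those at the threshold, host genes, and the partner with the largest rise and fall per group. The remaining RNAs of the 27 are named to account for each, and FBL, HEXIM1 and SNORD15B, SNORA12 and the U4 to U12 and RNY rows after their values were seen. Positions, lengths and sequences came from GENCODE 29 (GRCh38), except that RNVU1-26 and RNVU1-27 took theirs from RefSeq GRCh38.p14. Identities were computed with Biopython 1.88, and figures were drawn with Python 3.11.15 and matplotlib 3.10.9. Alternatives were no filter, a minimum of 5 TPM, a pseudocount of 0.1, rescaling to the median feature of mean TPM of at least 10, leaving out the 20 most abundant features or each library, pairwise fits, no trend, and a log2 fold threshold of 1.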

Additional observations from a re-analysis of the deposited data

Results flagged for a closer look

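The day 5 effect differed from the day 2 effect in 15 of the 27 RNAs, by limma's test of day 5 against day 2 (adjusted p under 0.05, and a difference over 0.5 in size). Both effects share the untreated libraries, which cancel in this difference. Over all features, 4.35% were called higher and 69.8% lower in this comparison, against 10 and 5 of the 27. The difference of day 5 minus day 2 on the log2(TPM + 1) scale was 3.40 for RNU1-1, 3.20 for SNORD3D, 2.78 for SCARNA7 and 2.70 for RNU2-2P. It was 2.04 for RNVU1-7, 1.85 for SNORD3A, 1.71 for RPPH1 and 1.57 for RN7SK. SNORA74A (adjusted p = 0.000339) and RN7SL600P (adjusted p = 0.0167) were listed at 0 in all day 2 libraries, so no difference is given. These 10 were also called higher after rescaling, a comparison added after seeing the data. The difference was negative on the TPM scale for SNORD17 (-1.45), RMRP (-1.23), RN7SL3 (-1.19), RN7SL2 (-1.11) and SNORA71B (-0.96). None of these 5 was called lower after rescaling, where the values were -0.73, -0.25, -0.53, -0.12 and -0.55 (limma adjusted p from 0.177 to 0.828).

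RNA5-8SN2, a ribosomal RNA outside the structured RNA families examined, reached 39037 TPM in the day 3 library H8, against at most 2674 TPM in an untreated library.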

How the results depend on the processing

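No paired analysis was possible because the replicate numbers only follow accession order and mark no shared culture. The day 5 calls of RN7SK, RN7SL1, RN7SL4P, RNU1-1, RNVU1-7, RPPH1, SCARNA7, SNORD17, SNORD3A and SNORD3D held in all 18 alternatives examined for each. Pairwise fits and the log2 fold threshold of 1 were used for counts only. The day 5 estimate of RN7SL4P (0.95) is under that threshold. The sign of RNVU1-15 at day 5 reversed without H2 (0.036), and that of RNVU1-27 after rescaling (0.081) and without H1 (0.69), H10 (0.081) or H12 (0.081). Without 1 library, RNVU1-15 ranged from -1.72 to 0.036 and RNVU1-27 from -0.95 to 0.69. Causes were not tested.

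Without the filter on low values, the counts ran over all 110 family rows above 0 in any library, not only the 27. In that fit, 6 rows were called higher at day 2, 7 from day 2 to 3 and 0 from day 3 to 5. Lower calls there were 5 at day 3, 0 from day 2 to 3 and 0 from day 3 to 5. With a minimum of 5 TPM, fewer of the 27 RNAs were tested, and 1 was lower at day 3, 0 from day 2 to 3 and 1 at day 5. SNORA71B (at most 3.54 TPM) and SNORA53 (at most 1.70 TPM) were left out of that fit. With a pseudocount of 0.1, 0 were higher from day 3 to 5 and 0 lower at day 2. After rescaling, 0 were lower at day 2, 0 at day 3, 0 from day 2 to 3 and 1 at day 5. Of the partners, 24 then rose at day 3 and 27 at day 5, while 37, 60 and 69 fell at days 2, 3 and 5. Leaving out the 20 most abundant features gave 2 and 4 higher partners at days 3 and 5. Higher calls from day 3 to 5 were 0 with no trend and 0 at a log2 fold over 1, which left 0 higher partners at day 3, 0 at day 5 and 9 lower at day 2. Pairwise fits gave 2 lower from day 3 to 5.

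Leaving out 1 library at a time gave 8 to 11 higher RNAs by day 2, 14 to 18 by day 3, 13 to 16 by day 5, 7 to 11 from day 2 to 3 and 0 to 1 from day 3 to 5. Lower calls were 0 to 2, 2 to 2, 1 to 4, 0 to 2 and 0 to 3 in the same order. Higher partners were 0 to 0, 1 to 2 and 2 to 2, and lower partners 63 to 68, 106 to 108 and 116 to 117, at days 2, 3 and 5.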
